A study of Mus musculus with 8 samples.

Results

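In melanomas of mice, 8 genes for inflammatory cytokines of the senescence secretome were followed: Il1a, Il1b and Il1rn of the IL-1 family, Il6, Tnf, and the monocyte chemokines Ccl2, Ccl7 and Ccl8. They were taken as every probe of the bead array whose gene symbol in the platform annotation was one of these 8, which gave 10 of 25697 probes and 8 of 16593 named genes. Il1rn had 3 probes and each other gene 1.

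The arrays held RNA of 8 whole tumours from C57BL/6 mice. Every mouse carried BrafCA, a conditional allele that turns on mutant Braf after Cre acts, and Tyr::CreER, a Cre that the tyrosinase promoter confines largely to melanocytes and that works only once tamoxifen is present. 4-hydroxytamoxifen was painted on newborn skin of all mice, so no group went without the oncogene. The WT mice carried Ifnar1+/+, the normal type I interferon receptor gene, and their tumours were taken at day 38 after tamoxifen (n = 2). The SA mice carried Ifnar1SA, an allele known for a receptor chain that escapes degradation, and their tumours were taken at day 20, day 38 and day 60 (n = 2 each). The treatment text of the labels speaks of Ifnar1-/- mice instead, and the genotype field was followed. The labels do not state that tumours of 1 group are from different mice, and p-values therefore reflect the spread between these samples, which may be technical.

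Senescent cells stop dividing but secrete cytokines, chemokines and proteases, known together as the senescence-associated secretory phenotype. In that programme IL-1α at the cell surface is known to act on the IL-1 receptor and, through NF-kB and C/EBPβ, to raise transcription of IL-6 and chemokines. IL-1β and TNF come mainly from activated myeloid cells, while CCL2, CCL7 and CCL8 draw in monocytes. In skin, IL-1α and the IL-1 receptor antagonist encoded by Il1rn are also made by keratinocytes, so a whole tumour mixes several sources of these transcripts. Fewer cells of a type and less RNA per cell cannot be told apart in such samples.

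The stretches upstream of the gene starts are shown because these genes are textbook targets of NF-kB and AP-1 and because 4 of the 6 looked up hold a TATA box. RefSeq's promoter table for GRCm38.p6 held 6 of the 8 genes (8 starts, 3 of them of Il1rn); Ccl2 and Ccl7 were not looked up elsewhere. Only the 250 bases before each start were searched, on both strands. Capitals mark the NF-kB consensus in Il6, the AP-1 motif TGANTCA in Il1rn (its first start), and the TATA box TATAAA in the other 4.
Il6 (chr5:30013050-30013099, + strand): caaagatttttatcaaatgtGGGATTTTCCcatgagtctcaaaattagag
Il1rn (chr2:24336699-24336745, + strand): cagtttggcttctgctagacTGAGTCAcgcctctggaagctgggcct
Il1a (chr2:129309979-129310024, - strand): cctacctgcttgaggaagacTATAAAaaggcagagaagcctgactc
Il1b (chr2:129371145-129371190, - strand): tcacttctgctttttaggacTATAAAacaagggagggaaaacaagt
Tnf (chr17:35202011-35202056, - strand): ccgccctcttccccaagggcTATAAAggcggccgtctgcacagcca
Ccl8 (chr11:82115133-82115178, + strand): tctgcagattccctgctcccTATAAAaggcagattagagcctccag
The NF-kB consensus was found in 1 of the 6 genes, at bases −44 to −35 from the start of Il6, and in 7.25% of all 32851 starts in the table. TGANTCA was found in 3 genes (Il6, Il1a and Il1rn) and in 6.75% of all starts, and TATAAA in 4 genes and in 12.4% of all starts. Motifs known to be read by interferon-activated factors, the IRF repeat and the GAS motif TTCNNNGAA, were found in 0 of the 6 genes in this window and in 2.98% and 7.02% of all starts. A match is a description of letters and shows no binding.

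Values below are log2 intensities after background correction. The filter on dim probes was a mean of 7.24 over the 8 arrays, a level that 40% of probes do not exceed, and the brightest probe past it stood for its gene. This left 7 of the 10 probes and 7 of the 8 genes. Tnf was the gene nearest above this limit, at a mean of 7.36, and Il6 the one below it, at 6.94. Called means that limma's p-value, adjusted by Benjamini and Hochberg's method over 11661 measurements, was under 0.05.

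None of the 7 tested cytokine genes was called in any of the 4 comparisons. For SA against WT at day 38, limma called 0 of 7, beside 0.06% of all genes. Il1a, Il1b, Il1rn and Ccl2 read lower on both SA arrays than on both WT arrays, 4 of 7 beside 30.1% of all genes lower without overlap, and 0 of 7 read higher without overlap (24.1% of all genes). Il1b, Il1rn and Ccl2 had an unadjusted p under 0.05, as did 14.1% of all genes. The median difference of the 7 was −0.73, against −0.02 over all genes.

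Between day 20 and day 38 in SA tumours, 0 of 7 were called (0.0172% of all genes) and 2 had an unadjusted p under 0.05 (Il1a and Il1rn; 10.7% of all genes). Il1a, Il1b and Il1rn read lower without overlap (3 of 7; 19.4% of all genes) and Ccl8 higher (1 of 7; 18.7%). From day 38 to day 60, 0 of 7 were called (1.09% of all genes) and 1 had an unadjusted p under 0.05 (Ccl8; 26.1%). Here Il1a, Tnf and Ccl8 read lower without overlap (25% of all genes) and Il1b, Il1rn and Ccl2 higher (32.9%). Between day 20 and day 60, 0 of 7 were called (0% of all genes) and 2 had an unadjusted p under 0.05 (Il1a and Il1rn; 23.5%). Il1a, Il1rn, Tnf and Ccl8 read lower without overlap, 4 of 7 beside 22.7% of all genes, and 0 of 7 higher (30%). The SA arrays of day 38 enter 3 of these comparisons and the other SA groups 2 each, so they are not separate evidence.

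**Figure D1:**
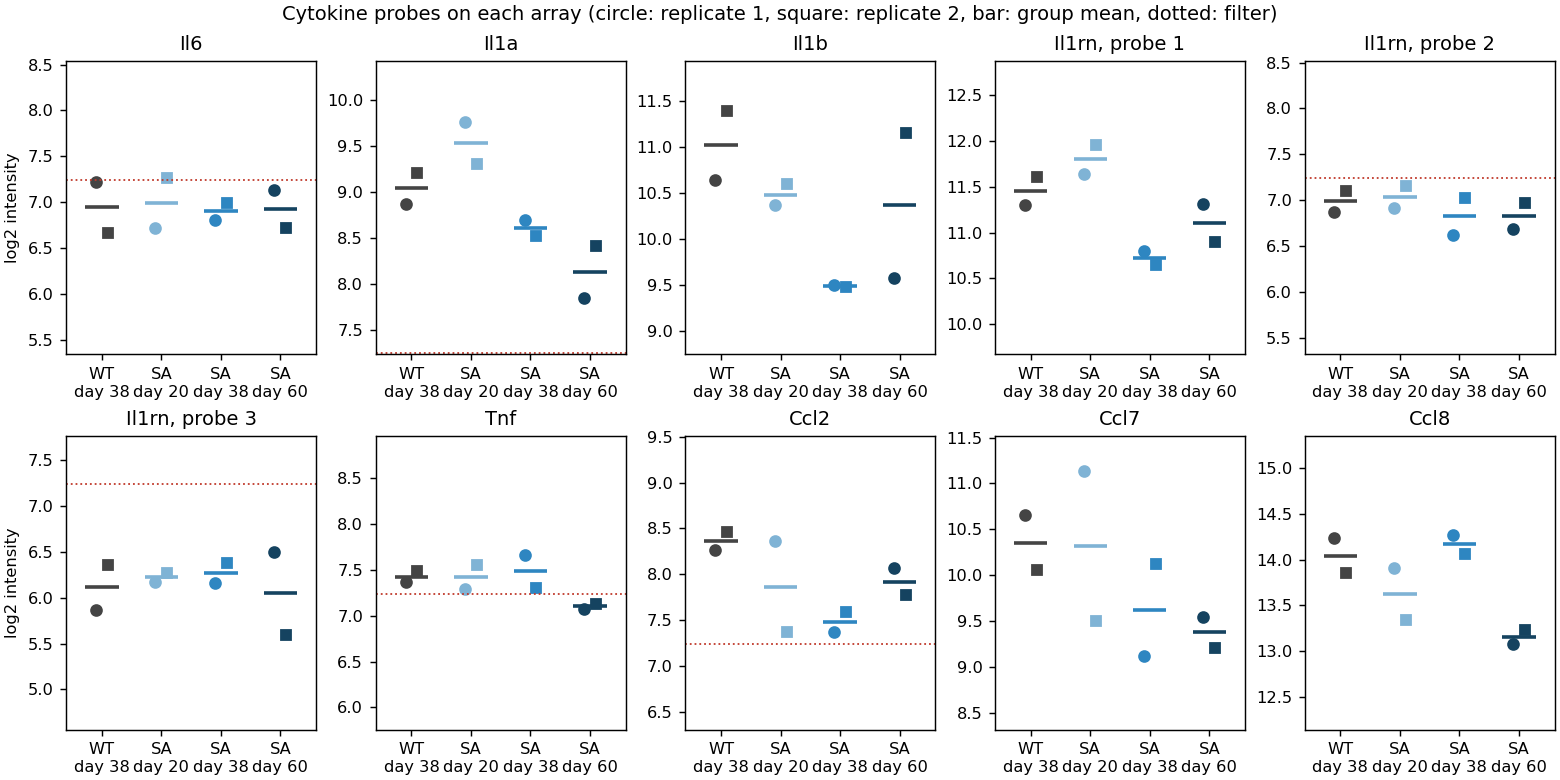
Log2 intensity (y axis) of the 10 cytokine probes on each array, by group (x axis); circles are replicate 1, squares replicate 2, bars group means of 2 arrays, and the dotted line is the filter at 7.24. Il1a, Il1b, Il1rn (probe 1) and Ccl2 read lower on both SA arrays of day 38 than on both WT arrays, while Il6 and Il1rn probes 2 and 3 lie near or below the filter in all groups.

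Sex-linked genes and markers of other tissue differed between the groups as well. Both SA tumours of day 38 read low for the Y-linked gene Eif2s3y (mean 6.15, against 11.46 to 11.75 in the other groups), so the effect of Ifnar1SA at day 38 and that of sex cannot be told apart, and the same holds for day 38 within the time course. Genes of skeletal muscle (8 of 8 measured) had array means of 11.49 and 11.98 in WT and 14.39 and 15.24 in SA at day 38, and fat cell markers (5 of 8 measured) 8.24 and 9.23 against 11.84 and 12.27. Melanocyte markers (7 of 8 measured) had their lowest array means in WT (9.46 and 9.36) and in SA_day20 replicate 1 (9.03), against 10.72 to 13.24 on the other 5 arrays. The part of muscle, fat and melanocyte content in the cytokine values was not tested.

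Il1a encodes IL-1α, the alarm cytokine that starts the secretory programme in senescent cells. Its probe read 8.87 and 9.21 in WT at day 38, 9.77 and 9.31 in SA at day 20, 8.70 and 8.52 at day 38, and 7.84 and 8.41 at day 60. Among SA tumours every day 20 array lay above every day 38 array, and these above every day 60 array; the WT arrays lay above both SA arrays of their own day and below both of day 20. From day 20 to day 60 the difference was −1.41 (SE 0.26, 95% interval −2.04 to −0.78), or 2.66-fold, with an adjusted p of 0.0913 that did not pass. Under the other processing settings it ran from −1.46 to −0.98, with limma's adjusted p from 0.0771 to 0.288. Over the 8 arrays left out in turn, each of which leaves 1 array in a group, the difference ran from −1.70 to −1.13. Neighbouring days differed by −0.93 (day 38 minus day 20, SE 0.26, adjusted p = 0.309) and −0.48 (day 60 minus day 38, SE 0.26, adjusted p = 0.289). At day 38 SA minus WT was −0.43, with a 95% interval of −1.06 to 0.20 (adjusted p = 0.495).

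Il1b encodes IL-1β, which inflammasomes cut to its active form in myeloid cells. It read 10.64 and 11.40 in WT, 10.37 and 10.59 in SA at day 20, 9.50 and 9.47 at day 38, and 9.57 and 11.16 at day 60. The pair of SA arrays at day 38 was the lowest of the 4 groups and nearly equal, whereas the day 60 pair lay 1.59 apart, beyond the 95th percentile of such gaps over all genes in that group. SA minus WT at day 38 was −1.53 (SE 0.51, 95% interval −2.75 to −0.31), or 2.90-fold, and did not pass (adjusted p = 0.288). It ranged from −1.91 to −1.16 with 1 array left out. The time steps in SA were −0.99 (adjusted p = 0.527) and 0.88 (adjusted p = 0.315). The second was 0.087 without SA_day60 replicate 2 and 1.67 without replicate 1. Day 60 minus day 20 was −0.12, with an interval of −1.34 to 1.10. Neutrophil markers, 9 of 13 of them measured, read below WT in SA at day 38 for 9 of 9 genes (53% of all genes read lower), with array means of 10.37 and 10.93 in WT and 10.30 and 9.22 in SA; Mpo, Ngp and Mmp8 lay below the filter. Over the 8 arrays Il1b had r = 0.23 with this list, −0.76 with skeletal muscle and −0.66 with fat cell markers. The part of these tissues in the Il1b values was not tested.

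Il1rn encodes the antagonist that occupies the IL-1 receptor without signalling. Probe 1 read 11.30 and 11.60 in WT, 11.64 and 11.96 in SA at day 20, 10.80 and 10.65 at day 38, and 11.31 and 10.90 at day 60. The day 38 SA arrays were again the lowest, with no overlap with any other group, and day 20 the highest. Day 38 minus day 20 was −1.08 (SE 0.21, 95% interval −1.59 to −0.57), or 2.11-fold (adjusted p = 0.194). SA minus WT at day 38 was −0.73 (SE 0.21, interval −1.25 to −0.22, adjusted p = 0.257), and day 60 minus day 20 was −0.70 (adjusted p = 0.141). From day 38 to day 60 it was 0.38 (adjusted p = 0.302). The other probes of Il1rn read 6.62 to 7.15 (probe 2) and 5.59 to 6.50 (probe 3) over the 8 arrays, below the filter on average. Their SA minus WT differences were −0.17 (SE 0.23) and 0.15 (SE 0.32) in a fit of all probes, where probe 1 gave −0.73, and the groups overlapped for both.

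Il6 encodes IL-6, the best known secreted factor of oncogene-induced senescence. It read 7.22 and 6.66 in WT, 6.72 and 7.26 in SA at day 20, 6.81 and 6.99 at day 38, and 7.13 and 6.72 at day 60. All 4 groups overlapped, and the group means ran from 6.90 to 6.99. In a fit of all 25697 probes, chosen because Il6 lay below the filter, SA minus WT at day 38 was −0.04 (SE 0.29, adjusted p = 0.975), and the time differences in SA lay between −0.09 and 0.02. At this signal a difference in Il6 was not detectable, which does not show that it was absent.

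Tnf encodes TNF, a cytokine of activated macrophages and T cells. It read 7.37 and 7.49 in WT, 7.29 and 7.55 in SA at day 20, 7.66 and 7.30 at day 38, and 7.08 and 7.12 at day 60. The day 60 arrays lay below all others, by a small margin and beneath the level of the filter. SA minus WT at day 38 was 0.06 (95% interval −0.38 to 0.49, adjusted p = 0.92), and day 60 minus day 38 was −0.38 (interval −0.82 to 0.06, adjusted p = 0.238). So near the background a log2 difference may understate a change in transcript, and for Tnf no change was called.

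Ccl2 encodes MCP-1, the main ligand of the monocyte receptor CCR2. It read 8.27 and 8.46 in WT, 8.36 and 7.37 in SA at day 20, 7.37 and 7.58 at day 38, and 8.07 and 7.77 at day 60. Both day 38 SA arrays lay below both WT arrays and below both of day 60, while the day 20 pair spanned nearly the whole range. The difference SA minus WT at day 38 was −0.89 (SE 0.33, 95% interval −1.67 to −0.11), or 1.85-fold (adjusted p = 0.313). It shrank to −0.49 in the deposited values without background correction. The time steps in SA were −0.39 (adjusted p = 0.71) and 0.44 (adjusted p = 0.42); the first turned to 0.11 without SA_day20 replicate 1.

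Ccl7 encodes MCP-3, a further ligand of CCR2 that also binds CCR1 and CCR3. It read 10.65 and 10.05 in WT, 11.13 and 9.50 in SA at day 20, 9.11 and 10.12 at day 38, and 9.54 and 9.21 at day 60. WT and SA overlapped at day 38, and the spread within SA at day 20 (1.64 between the arrays) exceeded every difference between group means. At day 38 SA minus WT was −0.74 (SE 0.58, 95% interval −2.13 to 0.66, adjusted p = 0.597). It was −0.23 without SA_day38 replicate 1 and −1.24 without replicate 2, and −0.44 without WT_day38 replicate 1. Day 60 minus day 20 was −0.94 (SE 0.58, adjusted p = 0.366), and it was −0.12 without SA_day20 replicate 1 and −1.76 without replicate 2.

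Ccl8 encodes MCP-2, which in mice acts on CCR8, and in skin is made by resident macrophages. It read 14.23 and 13.85 in WT, 13.91 and 13.34 in SA at day 20, 14.27 and 14.06 at day 38, and 13.08 and 13.23 at day 60. The day 60 arrays lay below those of every other group, and WT and SA at day 38 overlapped. Day 60 minus day 38 was −1.02 (SE 0.24, 95% interval −1.59 to −0.44), or 2.02-fold, with an adjusted p of 0.0726. Over all arrays left out in turn, each of which leaves 1 array in a group, the difference ran from −1.12 to −0.91. Day 38 minus day 20 was 0.55 (interval −0.03 to 1.12, adjusted p = 0.477). SA minus WT at day 38 was 0.12, with an interval of −0.45 to 0.70 (adjusted p = 0.854).

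**Figure D2:**
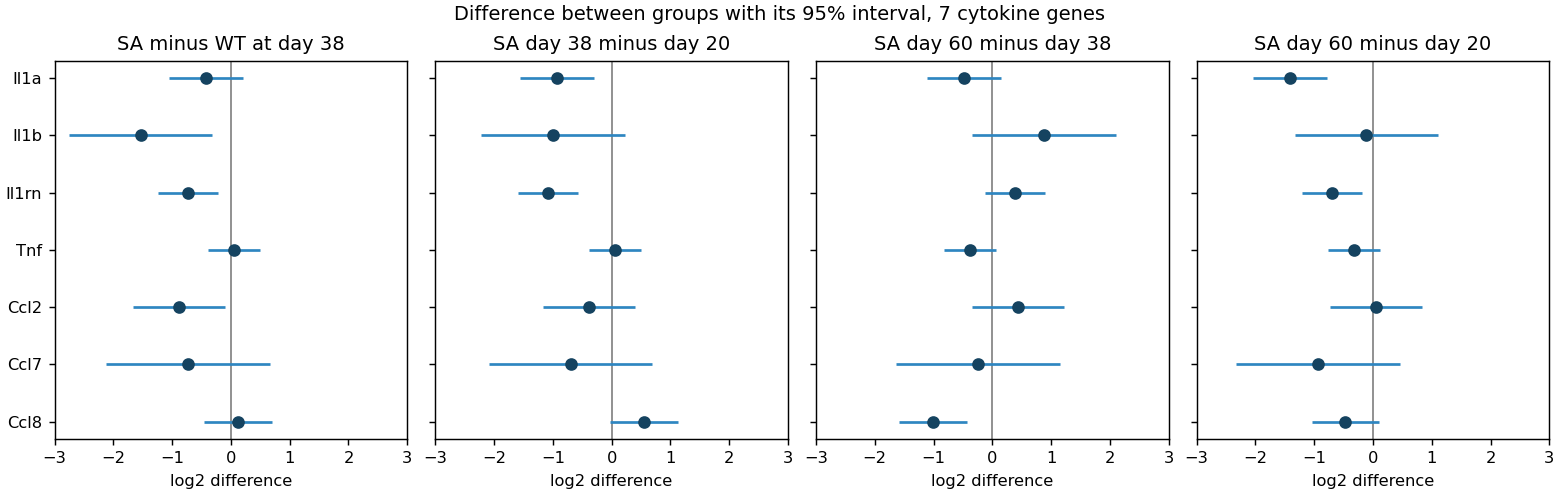
Log2 difference between groups (x axis) with its 95% interval from limma for the 7 tested cytokine genes (y axis), 1 panel for each of the 4 comparisons; each group holds 2 arrays. Il1b, Il1rn and Ccl2 have intervals below 0 for SA minus WT at day 38, Il1a and Il1rn for day 38 minus day 20 and for day 60 minus day 20, and Ccl8 for day 60 minus day 38, all before adjustment over genes.

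Monocyte chemokines were set beside the markers of several cell types. The macrophage and monocyte list, 12 of 15 measured, had array means of 11.61 and 11.67 in WT, 12.26 and 11.12 in SA at day 20, 11.62 and 11.83 at day 38, and 11.20 and 10.92 at day 60. Over the 8 arrays, which are the same tumours for both measures, Pearson's r with this list was 0.78 for Ccl7, 0.72 for Ccl8, 0.56 for Il1a and 0.41 for Ccl2. The corresponding values were 0.22 for Tnf, 0.01 for Il1rn and −0.21 for Il1b. Other lists were related to these chemokines too: with fibroblast markers (10 of 10 measured) r was 0.78 for Ccl8 and 0.61 for Ccl7, with melanocyte markers −0.77 for both, and with the 1 measured B cell gene 0.89 for Ccl8. The fibroblast list had array means of 13.40 and 13.30 in WT, 13.33 and 12.78 in SA at day 20, 13.21 and 12.73 at day 38, and 12.54 and 12.50 at day 60. Of its 10 genes, 7 read lower and 1 higher without overlap in SA than in WT at day 38. Over all genes these shares were 30.1% and 24.1%. At day 60 against day 38, 6 were lower and 2 higher without overlap, beside 25% and 32.9% of all genes. SA_day20 replicate 1, the array with the highest macrophage mean, also held the highest Ccl7 and Il1a values. Its Ccl8 value (13.91) was not the highest, and lay below WT_day38 replicate 1 (14.23) and both SA arrays of day 38 (14.27 and 14.06). The 2 arrays of day 60 had 2 of the 3 lowest macrophage means and the lowest Ccl8. From day 38 to day 60, 10 of the 12 macrophage genes were lower (median −0.76), beside 46.3% of all genes, and 2 were higher. Without overlap, 8 were lower and 1 higher, beside 25% and 32.9% of all genes. Limma called 0 of the 12, beside 1.09% of all genes. Lyz2, a lysozyme gene of myeloid cells, had the smallest p (−1.03, adjusted p = 0.0579). The part of macrophage, fibroblast, melanocyte or B cell content in the chemokine values was not tested.

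**Figure D3:**
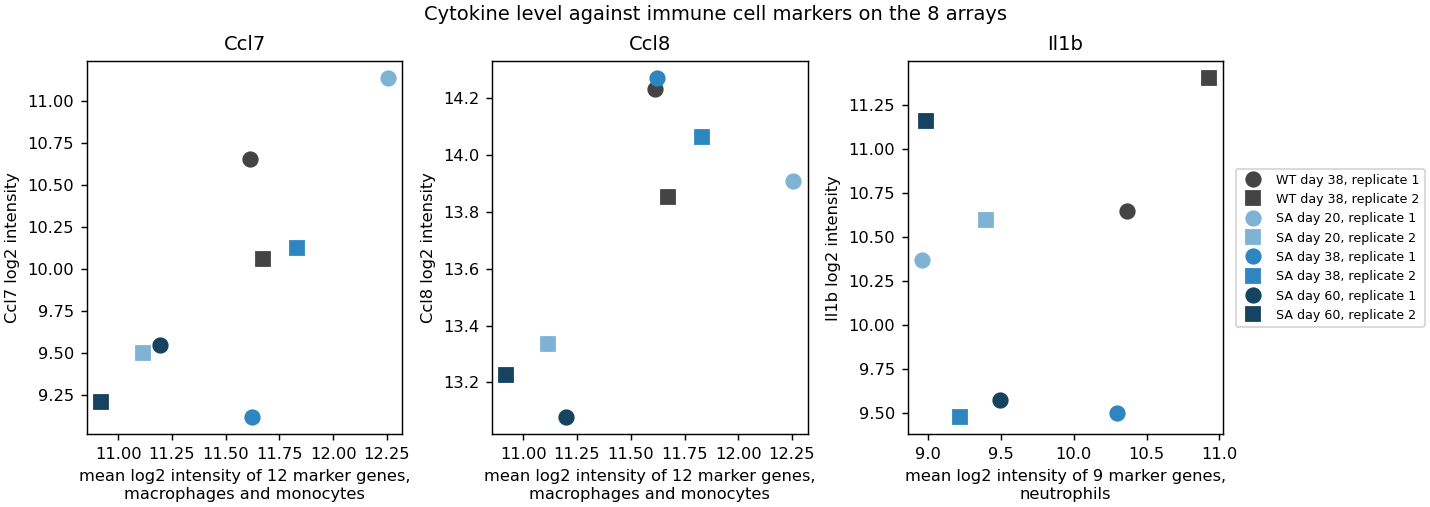
Log2 intensity of Ccl7, Ccl8 and Il1b (y axes) against the mean log2 intensity of macrophage and monocyte markers (12 genes) or neutrophil markers (9 genes) on each of the 8 arrays (x axes); colours are groups, circles replicate 1 and squares replicate 2. Ccl7 and Ccl8 are higher on arrays with higher macrophage means (r = 0.78 and 0.72), while Il1b shows no such order with neutrophil markers (r = 0.23).

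Among themselves the cytokine genes were loosely related over the 8 arrays. The pair of chemokines Ccl2 and Ccl7 had r = 0.69, Il1a and Il1rn 0.61, Il1a and Ccl7 0.58, and Tnf and Ccl8 0.56. Ccl2 and Ccl8 had r = 0.07 and Il1b and Ccl8 −0.19. The genes most like each cytokine among all genes tested included Krt1, a keratin of the upper epidermis, for Il1rn (r = 0.94), and Ms4a7, a gene of macrophages, for Ccl7 (r = 0.94). Krt1 read 11.41 and 11.35 in SA at day 38 and 11.72 to 13.65 on the other 6 arrays. The whole keratinocyte list, 8 of 9 measured, had array means of 13.35 and 13.22 in WT, 13.52 and 13.84 in SA at day 20, 13.30 and 13.23 at day 38, and 13.56 and 13.37 at day 60. Its r with Il1rn was 0.68, but the list includes Krt1, named here for its likeness to Il1rn. In SA against WT at day 38, 5 of the 8 list genes read higher and 3 lower. Without overlap, 3 were higher and 2 lower (24.1% and 30.1% of all genes). The part of keratinocyte content in the Il1rn values was not tested. For Ccl7 the other 2 were Zfp609 (0.95) and Slc9a9 (0.95), and for Ccl8 they were Cep63 (0.99), Apip (0.96) and Tbxas1, which encodes thromboxane synthase (0.96). Ccl2 was most like Etfbkmt (0.97), Fam171b (0.97) and the innate immune receptor gene Tlr13 (0.94). For Il1a they were Hrh2, a histamine receptor gene (0.96), Ift20 (0.95) and Fbxo33 (0.95); for Il1b Sub1 (0.96), Tmem208 (0.93) and Pcdhb8 (0.92); for Tnf Efr3a (0.97), Ivns1abp (0.95) and Aebp2 (0.94). Olfr231 (0.93) and Psca (0.92) completed the 3 for Il1rn. Between 5 and 49 of the genes tested exceeded 0.9 for each cytokine over these 8 arrays, and the values are descriptions.

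Partners of these cytokines came from 6 lists of 151 genes, of which 112 were tested. In SA against WT at day 38, 0 of them were called by limma in any list. The lists covered the IL-1, IL-6 and TNF pathways, NF-kB control, CC chemokines with their receptors, and other secreted factors of senescent cells. In the IL-1 list 10 of 19 read higher and 9 lower (median 0.08, against −0.02 over all genes). The smallest p-values there belonged to the accessory receptor chain Il1rap, at −1.16 (SE 0.38, adjusted p = 0.283), and the decoy receptor Il1r2, at 1.63 (SE 0.56, adjusted p = 0.295). Il1rap read 10.72 and 10.92 in WT against 10.18 and 9.13 in SA, and Il1r2 9.03 and 9.46 against 10.69 and 11.06. In both genes the groups did not overlap, as in 54.1% of all genes in this comparison.

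Other secreted factors of senescent cells read lower in SA at day 38 in 15 of 24 tested genes, beside 53% of all genes (median −0.17, against −0.02 over all genes), with 0 called. The collagenase gene Mmp13 read 13.05 and 12.98 in WT and 11.38 and 10.90 in SA (−1.88, SE 0.23, adjusted p = 0.11). Cxcl2, a neutrophil chemokine gene and a known IL-1 target, read 9.31 and 9.82 in WT and 7.31 and 7.32 in SA (−2.25, SE 0.53, adjusted p = 0.218). In SA it read 8.77 and 8.73 at day 20, and 8.67 and 10.43 at day 60. In the remaining lists the smallest p-values were those of the transcription factor gene Cebpb (0.64, adjusted p = 0.238) and the NF-kB inhibitor gene Nfkbib (−0.65, adjusted p = 0.258). The fractalkine receptor gene Cx3cr1 gave −1.34 (adjusted p = 0.27) and the chemokine scavenger Ackr2 1.07 (adjusted p = 0.279). The lymphotoxin receptor gene Ltbr gave −0.49 (adjusted p = 0.265) and Map3k7, a kinase upstream of NF-kB, −0.39 (adjusted p = 0.396). In the IL-6 list Lifr gave −0.50 (adjusted p = 0.366) and Il11 −0.37 (adjusted p = 0.377), and 7 of 16 genes read higher.

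From day 38 to day 60 in SA tumours, limma called 2 of 16 IL-6 list genes as higher, beside 0.712% of all genes. Of the 16, 8 read higher and 8 lower (median 0.10, against 0.04 over all genes). Stat3, the transcription factor that IL-6 receptors activate, read 12.92 and 12.64 at day 38 and 14.08 and 13.97 at day 60, a rise of 1.24 (SE 0.16, limma adjusted p = 0.0420). These values are of its brightest probe, and the mean of its probes past the filter rose by 0.998 (limma adjusted p = 0.0565). Il11, an IL-6 family cytokine, read 7.32 and 7.54 and then 8.63 and 8.42, a rise of 1.10 (SE 0.16, adjusted p = 0.0447). Il7, a lymphocyte growth factor counted among the factors of senescent cells, rose by 1.05 (SE 0.15, adjusted p = 0.0447) from 7.97 and 8.26 to 9.21 and 9.13, the only 1 of 24 called in that list. The day 38 values of Il11 lay near the filter level of 7.24. In the deposited values without background correction the rise shrank to 0.62 for Il11 and 0.71 for Il7, and was 1.22 for Stat3. Neither Il11 nor Il7 passed the 60th percentile filter. All 3 calls were lost without any 1 of the 6 arrays of WT, day 38 or day 60 (adjusted p from 0.0928 to 0.170), and the sex pattern changed between these days as well. Markers of other tissue differed too. At day 60, 8 of 8 skeletal muscle genes (median −3.33) and 5 of 5 fat cell genes (median −2.16) read lower without overlap. Over all genes 25% did so. Higher without overlap were 7 of 7 melanocyte genes (median 2.05), beside 32.9% of all genes. Here limma called 0 of 8 muscle, 1 of 5 fat cell and 1 of 7 melanocyte genes. In the list of dendritic cells it called 1 of 4, beside 1.09% of all genes. The fat hormone gene Lep (−4.53, limma adjusted p = 0.0420) and the lectin gene Cd209a (−1.61, adjusted p = 0.0392) were lower. The melanocyte regulator gene Mitf (2.45, adjusted p = 0.0420) was higher. The part of these tissues in the values of Stat3, Il11 and Il7 was not tested. In the other pathway lists 0 genes were called. The nearest were Ltbr at 0.85 and the chemokine gene Ccl9 at −1.98 (adjusted p = 0.0544 each), and Tnfaip2, a TNF-induced gene, at 1.34 and Irak1, a kinase of the IL-1 receptor, at 0.71 (0.0579 each). The fractalkine gene Cx3cl1 gave 1.31 (adjusted p = 0.0642), Nfkbib 0.84 (adjusted p = 0.0698) and Bcl3, an NF-kB cofactor gene, 1.15 (adjusted p = 0.0824). Gsdmd, whose protein forms the pore that releases IL-1β, gave −0.72 (adjusted p = 0.193).

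**Figure D4:**
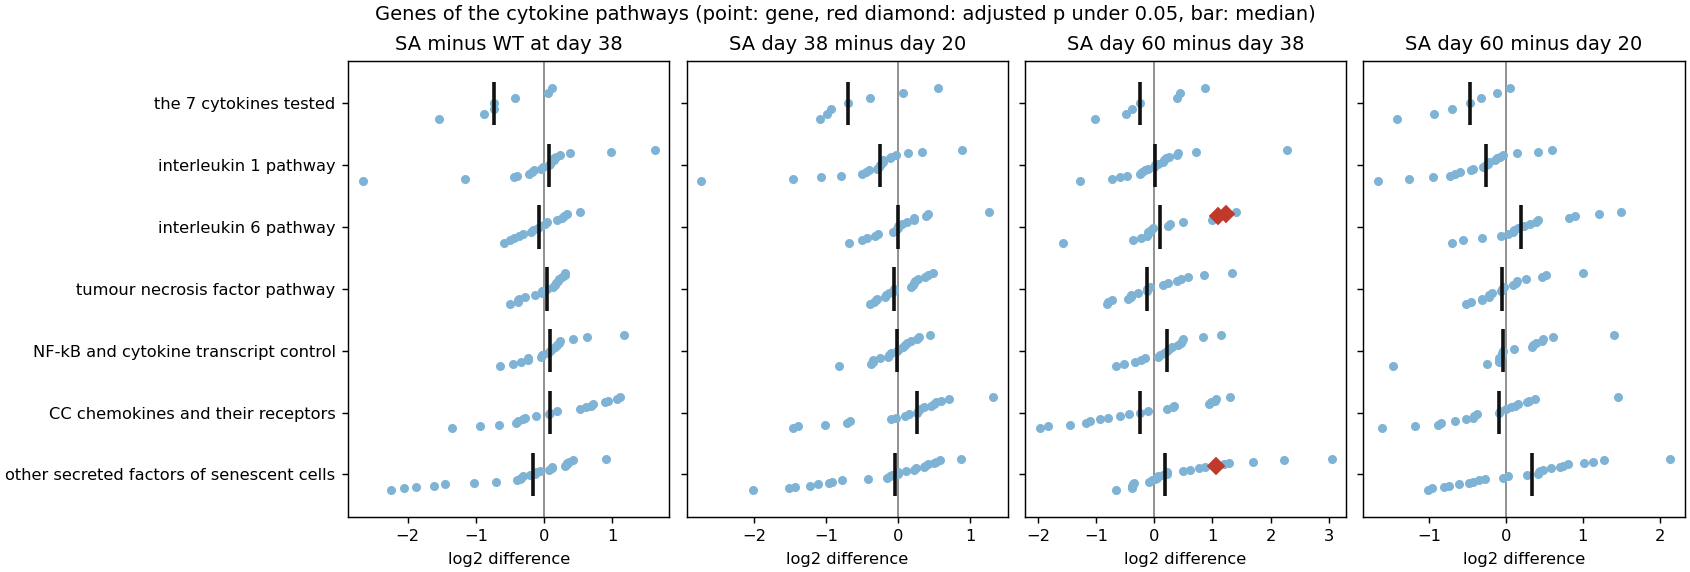
Log2 difference (x axis, 1 panel for each comparison) of each tested gene of the 7 cytokines and of the 6 pathway lists (y axis); points are genes, red diamonds genes with a limma adjusted p under 0.05, and bars list medians. The 3 called genes are Stat3, Il11 and Il7, all higher at day 60 than at day 38.

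Between day 20 and day 38 in SA, 16 of 19 IL-1 pathway genes read lower (median −0.25, against 0.01 over all genes, of which 48.9% read lower), and 0 were called. Il18, an IL-1 family cytokine of keratinocytes and macrophages, read 11.98 and 11.85 at day 20, 10.34 and 10.57 at day 38, and 10.88 and 10.42 at day 60. Day 38 minus day 20 was −1.46 (SE 0.23, adjusted p = 0.106) and day 60 minus day 20 was −1.26 (SE 0.23, adjusted p = 0.0913). The inflammasome adaptor gene Pycard gave −0.79 (adjusted p = 0.348) over the first step. The chemokine scavengers Ackr2 and Ackr4 gave −1.39 (adjusted p = 0.277) and −1.46 (adjusted p = 0.295), Il7 −0.78 (adjusted p = 0.19) and Mmp13 −1.11 (adjusted p = 0.213). In the TNF, NF-kB and IL-6 lists the values nearest to a call were Ltbr at −0.39 (adjusted p = 0.434), Casp8 at 0.42 (adjusted p = 0.498), Ikbkg at −0.35 (adjusted p = 0.482), Nfkbib at −0.38 (adjusted p = 0.522), Jak2 at 0.39 (adjusted p = 0.523) and Il11 at −0.28 (adjusted p = 0.585).

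From day 20 to day 60 the IL-1 list read lower in 16 of 19 genes, beside 46.5% of all genes (median −0.26, against 0.03 over all genes), with 0 called in any list. Without overlap, 6 were lower and 1 higher, beside 22.7% and 30% of all genes. From day 20 to day 38 these counts were 11 and 1, beside 19.4% and 18.7%. The day 20 arrays are shared with that comparison, so the 16 of 19 genes are no second observation. Stat3 gave 1.21 (SE 0.16, adjusted p = 0.0814), Il11 0.82 (adjusted p = 0.0929), Cx3cl1 1.46 (adjusted p = 0.0913), Bcl3 1.41 (adjusted p = 0.0969), Ccl9 −1.62 (adjusted p = 0.0992) and Irak1 0.60 (adjusted p = 0.107). Mmp13 gave −0.96 (adjusted p = 0.108), and the urokinase receptor gene Plaur, Tnfaip2 and Ltbr gave 1.13, 1.01 and 0.46 (adjusted p = 0.114, 0.114 and 0.149). Rela, the main NF-kB subunit gene, gave 0.48 (adjusted p = 0.161).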

How the data were processed

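RNA of 8 melanomas was hybridised to Illumina bead arrays. The deposited intensities were linear (183.9 to 71767, with array medians of 409.3 to 410); these values show quantile normalization by the authors and no background subtraction. The submitters' processing notes name GenomeStudio 1.8. A table of unnormalized signals was not used, since its 16 columns could not be tied to samples. Limma's normexp correction (saddle, offset 16) preceded the log2 step. Gene symbols came from the platform annotation. Group means were estimated by limma 3.58.1 (R 4.3.3) from the 8 arrays together, with 4 residual and 2.49 prior degrees of freedom, after tests on simulated data. The number of arrays limits the precision. Members, lists and alternatives were chosen with earlier results of these data known. Named genes were the members, list genes called (or, with none, the 2 with the smallest p), and for each tested member the 3 genes with the highest r; Lyz2, Lep, Cd209a and Mitf were named after their values were seen. One item of the mouse model is not reported here. Alternatives covered background, filter, probe rule, arrays fitted, replicate block, variance prior, array weights, normalization and leaving out each array; the settings for named list genes were added after seeing the data.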

Additional observations from a re-analysis of the deposited data

How the results depend on the processing

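Under the 13 other settings no cytokine gene was called (smallest adjusted p 0.0616), and their 356 differences kept their sign. With 1 array left out, which leaves 1 array in a group, 11 of 224 differences turned in sign. The turned differences ranged, for SA minus WT, from −0.13 to 0.24 for Tnf and from −0.065 to 0.31 for Ccl8. Between day 20 and day 38 they ranged from −0.12 to 0.24 for Tnf, from −0.88 to 0.11 for Ccl2 and from −1.52 to 0.12 for Ccl7. From day 38 to day 60 Ccl7 ranged from −0.75 to 0.26, and from day 20 to day 60 Ccl2 ranged from −0.44 to 0.55 and Il1b from −0.91 to 0.68. The cause was not tested. Counts of all genes called moved more. For SA against WT (7) limma called 4 without background correction, 36 in a fit of only the groups compared, 13 with array weights, and 1 to 42 with 1 array left out. From day 20 to day 38 (2) it called 21 without background correction, 10 with an offset of 50, 15 with the 60th percentile filter, 14 with a variance trend, 1 in a fit of only the groups compared, and 1 to 46 with 1 array left out. From day 38 to day 60 (127) it called 365 without background correction, 332 with the 60th percentile filter, 269 with each probe tested, 3 without a filter, 44 in a fit of only the groups compared, and 1 to 930 with 1 array left out. From day 20 to day 60 (0, beside 2741 at an unadjusted p under 0.05) the count was 0 under the other settings and 0 to 915 with 1 array left out, 915 being without SA_day20 replicate 2 and 6 without replicate 1. With the replicate number as a block it was 1, 1, 1 and 0 in the 4 comparisons, with 0 cytokine genes called in each. Deviations of same-numbered arrays correlated at −0.20 to 0.11. These correlations do not settle whether same-numbered arrays share more than a number. The calls of Stat3, Il11 and Il7 were lost without a filter (adjusted p = 0.0750, 0.0850 and 0.0845), in a fit of only the groups compared (0.0664, 0.0785 and 0.0813) and with the block (0.0546, 0.0672 and 0.0668), and that of Stat3 with the mean of probes (0.0565).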
